A study of Mus musculus with 6 samples.

Results

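The genes described here encode enzymes that hydroxylate and crosslink collagen, together with the collagen chaperone Serpinh1. They were chosen by name, as the probe sets for which the platform annotation lists exactly 1 gene that is one of 10 genes: Lox, Loxl1, Loxl2, Loxl3, Loxl4, Plod1, Plod2, P4ha1, P4ha2 and Serpinh1. The rule found 17 of the 45101 probe sets on the array, and these read 9 of the 10 genes, among 18193 genes read by the array. Both probe sets that list Loxl2 also list a second gene, so Loxl2 has no value here. Of the 17 probe sets, 15 reached the level that the gene-level filter required and 2, a dim one each of Lox and Plod1, lay under it. All 9 genes with a probe set were tested.

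RNA of sorted osteocytes, the cells embedded in bone matrix, was hybridised to 6 Affymetrix arrays, 3 of mice lacking estrogen receptor alpha in osteocytes (ERαΔOcy/ΔOcy) and 3 of control littermates. The controls are labelled WT, while the extraction protocol names ERαflox/flox mice, and the labels state neither the promoter behind the Cre transgene nor if control mice had it. Mice of both groups were female, of strain C57/BL6 and aged 10 to 12 days, received no treatment named in the labels, and had a Dmp1-GFP transgene, whose green fluorescence was used to sort cells released from calvariae in digestions 4 to 6 of 6. The series design says that RNA was not pooled, while the protocol speaks of pooled calvarial tissue, so arrays of a genotype may share tissue and p-values then measure only the spread between these samples.

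Collagen chains are modified before and after they leave the cell. In the endoplasmic reticulum prolyl hydroxylases make the hydroxyproline that keeps the triple helix stable at body temperature, lysyl hydroxylases make the hydroxylysine from which the mature crosslinks of bone form, and Serpinh1, also called Hsp47, binds the folded triple helix. Outside the cell the copper enzymes of the lysyl oxidase family turn lysine and hydroxylysine into aldehydes that join neighbouring molecules. In bone these crosslinks contribute to the mechanical properties of the mineralising matrix.

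None of the 9 tested members passed the threshold, an adjusted p under 0.05 in limma over 10916 genes (0% of all genes were called). At an unadjusted p under 0.05 there were 4 members, Serpinh1, P4ha2, Loxl1 and Loxl3, where 10.5% of all genes were at that level. This count depended on single arrays: it was 0 without knockout replicate 1, 1 without control replicate 1, control replicate 2 or knockout replicate 3, 3 without knockout replicate 2 and 5 without control replicate 3. Of all genes, 6.92%, 6.6% and 6.64% were at that level without knockout replicates 1, 2 and 3. The shares were 12.1%, 16.4% and 9.87% without control replicates 1, 2 and 3. The count of members also depended on the processing of all 6 arrays. The count was 1 with the deposited scaling or no variance trend, 2 with median scaling or array weights and 3 with no level filter. In these settings 7.46% to 12.1% of all genes were at that level. Values were compared as log2(signal + 16) after quantile normalisation, and the brightest probe set stood for its gene. On that scale the differences between knockout and control ran from -0.38 for P4ha2 to 0.33 for Loxl1, with a median of -0.01, the same as that of all genes (-0.01). Of the 9 genes, 5 lay lower and 4 higher in knockout arrays, where 51.7% of all genes lay lower. The 3 arrays of one group did not overlap the 3 of the other for Loxl3 and Serpinh1, both lower, and such separation in either direction was found for 17% of all genes and as lower for 7.76%.

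**Figure D1:**
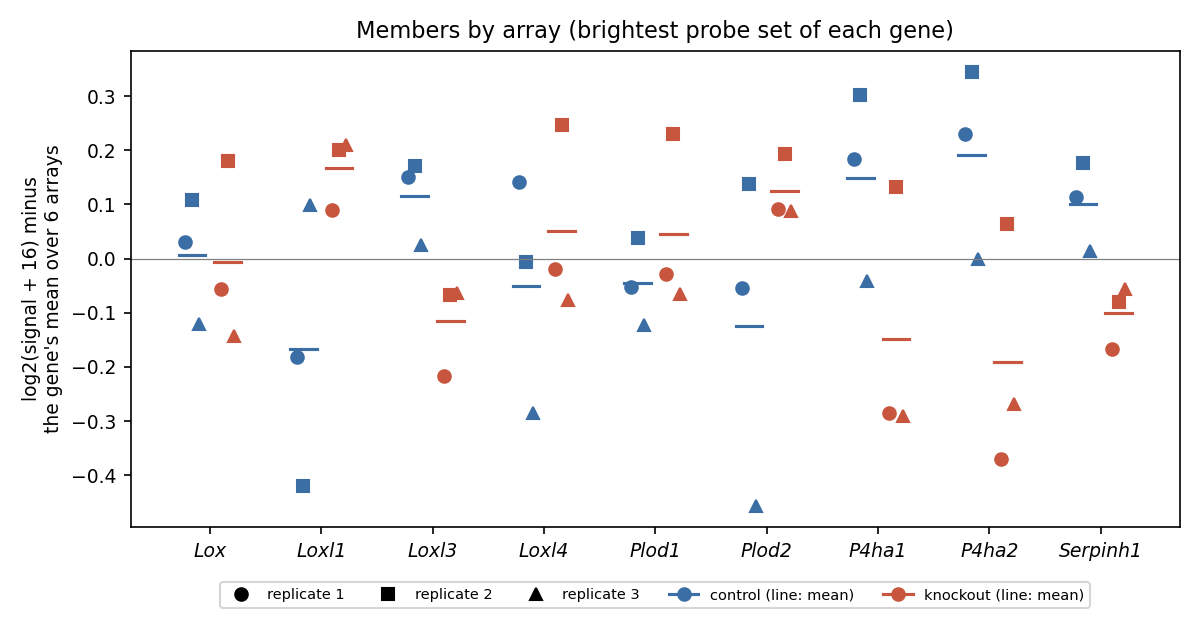
Level of each member on each array, as log2(signal + 16) after quantile normalisation minus the gene's mean over the 6 arrays (vertical axis). Blue marks are control and red marks knockout arrays, the shape gives the replicate and the lines are group means of 3 arrays. Loxl3 and Serpinh1 have all control marks above all knockout marks, and for P4ha1 and P4ha2 knockout replicate 2 lies among the controls.

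Across the series the arrays did not divide cleanly by genotype. Pearson's r across tested genes (genes are no independent replicates) was 0.939 to 0.969 between control arrays, 0.984 to 0.988 between knockout arrays and 0.961 to 0.975 between arrays of different genotype. Skeletal muscle genes (11 of 14 listed were tested) summed to 237.5 in deposited signal in control replicate 2, against 38268.7 and 32466.8 in control replicates 1 and 3 and 4703.3 to 22183.9 in knockout arrays. Macrophage markers summed to 2418.7 in control replicate 1, against 9791.6 and 9198.9 in control replicates 2 and 3 and 6261.0 to 8006.8 in knockout arrays. The counts of markers that follow are of normalised log2 levels, while all sums are of deposited signal. With the deposited scaling the median difference of all genes was 0.14, against -0.01 after normalisation. Counts and sums can thus point opposite ways, as for the osteoblast markers. Of the chondrocyte markers, 13 of 13 lay higher in knockout arrays, with sums of 1289.7 to 4036.2 in control and 4852.9 to 7600.5 in knockout arrays. Pericyte and smooth muscle markers lay lower for 10 of 10, with sums of 15895.9 to 25350.8 and 15377.5 to 18643.6, and fibroblast markers for 7 of 8, with 21174.5 to 26881.8 and 21109.5 to 24366.4. Of the osteocyte markers, 8 of 11 lay lower, with sums of 16763.9 to 20546.1 and 16406.5 to 21577.3, and Dmp1 had mean levels of 12.85 ± 0.16 and 12.55 ± 0.14 (SD, 3 arrays each, control first). Osteoblast markers lay lower for 6 of 8, with sums of 47292.3 to 52537.3 and 51290.5 to 54992.1. Endothelial markers lay higher for 7 of 9, with sums of 569.7 to 856.1 and 675.8 to 755.0. Osteoclast markers lay higher for 4 of 6, with a median difference of 0.02 and sums of 3841.8 to 5545.0 and 6091.9 to 6814.6. Among them Mmp9, a gelatinase singled out after its values were seen, differed by 1.55 ± 0.29 (SE, limma adjusted p = 0.203), and the 5 others by -0.07 to 0.11. Mmp9 passed with the deposited scaling (1.71, limma adjusted p = 0.00011), when 0.275% of all genes were called. Chondrocyte markers also passed in that setting. Markers of several cell types passed without control replicate 2, when 2.67% of all genes were called. No tested gene of these lists was listed at 0 on any array. The part of cell mixture in the differences below was not tested, and in such samples fewer cells of a type and less RNA per cell cannot be told apart. Without control replicate 2 the groups were separated for Plod2, higher, and for Loxl3 and Serpinh1, lower, when 34.2% of all genes were separated, 16.2% as higher and 18% as lower.

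P4ha1 and P4ha2 encode the catalytic alpha subunits of prolyl 4-hydroxylase, which work in a complex with the beta subunit P4hb. They followed each other over the arrays, and for this reason the sequences before their start sites are shown. That of Serpinh1, the member with the smallest unadjusted p in the main gene-level fit, stands beside them. The windows searched are the 250 bases before a RefSeq start site, from build GRCm38.p6, on the strand of the gene. RefSeq's P4ha1 gene begins at position -99 from the start site of its window, so that only the first 151 bases of that window are shown. Capitals mark ACGTG and GCGTG on either strand, the core letters bound by hypoxia-inducible factors, of which P4ha1 and P4ha2 are known targets. The P4ha1 sequence lies on the plus strand at chr10:59323046-59323196, P4ha2 on the plus strand at chr11:54100674-54100923 and Serpinh1 on the minus strand at chr7:99353240-99353489.
P4ha1: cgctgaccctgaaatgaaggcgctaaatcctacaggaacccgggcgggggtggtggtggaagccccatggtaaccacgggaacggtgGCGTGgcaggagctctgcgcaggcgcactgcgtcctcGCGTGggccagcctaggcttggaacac
P4ha2: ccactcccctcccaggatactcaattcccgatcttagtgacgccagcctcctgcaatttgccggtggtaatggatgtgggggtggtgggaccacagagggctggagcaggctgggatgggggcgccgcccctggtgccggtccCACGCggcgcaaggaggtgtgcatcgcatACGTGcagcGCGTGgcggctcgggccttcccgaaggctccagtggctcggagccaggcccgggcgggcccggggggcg
Serpinh1: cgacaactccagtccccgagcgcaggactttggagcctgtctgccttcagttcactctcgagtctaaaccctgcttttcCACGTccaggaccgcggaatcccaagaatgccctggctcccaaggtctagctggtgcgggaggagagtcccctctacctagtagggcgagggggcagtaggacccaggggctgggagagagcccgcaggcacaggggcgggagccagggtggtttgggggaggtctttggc

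The P4ha1 window holds 3 such matches and the P4ha2 window 3, with 1 ACGTG and 2 GCGTG in each. In P4ha1 they begin at positions -163, -126 and -16 from the start site of the window, the last of them within the gene and not shown, and in P4ha2 at -107, -78 and -69. Serpinh1 has 1 ACGTG, at -171. The windows of Loxl4 and Plod1, whose brighter probe sets lay higher in knockout arrays, hold 1 GCGTG each, at -162 and -20. No window of the other members, Lox among them, was searched, so these counts do not compare the members as a set. Of 32851 windows of the same length, 38.6% hold ACGTG or GCGTG on either strand and 16.6% hold ACGTG, and the 2 motifs share letters without overlapping here. These windows are rich in G and C, at 69.6% for P4ha1 and 70% for P4ha2 against a median of 52.4%. Of the 3224 windows at least as rich as that of P4ha1, 66.7% hold at least 1 match to either motif and 21.1% hold ACGTG. The share of windows with 3 matches was not counted. GGTCA, the arm shared by the palindromes that estrogen receptors bind, is found on either strand in 35.2% of windows and in that of P4ha1, at -247. A match describes the letters only.

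P4ha2 had a single probe set (1417149_at). Its deposited signals, here and below in the order of replicates 1, 2 and 3, were 1544.1, 1506.5 and 1099.9 for control and 939.0, 1270.9 and 1297.1 for knockout arrays. After normalisation the log2 levels were 10.55, 10.66 and 10.31 in control and 9.95, 10.38 and 10.05 in knockout arrays. Knockout replicates 1 and 3 lay below every control array, while knockout replicate 2 lay above control replicate 3, so the groups overlapped. The means were 10.51 ± 0.18 and 10.12 ± 0.23 (SD, 3 arrays each), a difference of -0.38 ± 0.14 (SE, 95% interval -0.71 to -0.06, limma adjusted p = 0.416). That is 1.30-fold lower in knockout arrays, and the interval runs from 0.612-fold to 0.962-fold. Without control replicate 2 the difference was -0.31 ± 0.15 (SE, limma adjusted p = 0.356).

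P4ha1 had 2 probe sets, both lower in knockout arrays. The brighter (1452094_at) had signals of 1716.9, 1695.7 and 1238.7 in control and 1142.1, 1551.6 and 1484.7 in knockout arrays, and log2 levels of 10.71, 10.83 and 10.48 against 10.24, 10.66 and 10.23. The groups overlapped through knockout replicate 2, as for P4ha2. The difference was -0.30 ± 0.14 (SE, 95% interval -0.63 to 0.04, limma adjusted p = 0.516). The dimmer (1426519_at) had signals of 308.1, 259.7 and 202.6 in control and 187.9, 193.0 and 181.0 in knockout arrays. All 3 knockout arrays were under all 3 control arrays, in deposited signal and in the log2 levels of 8.27, 8.21 and 7.95 against 7.70, 7.78 and 7.31. This was the largest difference of the 17 probe sets, at -0.55 ± 0.15 (SE, 95% interval -0.90 to -0.20), or 1.46-fold lower, with an adjusted p of 0.393 in limma over 45037 probe sets. It stayed between -0.64 and -0.40 with any 1 array left out. For every member, the brightest probe set is given from the fit over genes and any other from the fit over probe sets.

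The order of the arrays was nearly the same for both genes. Control replicate 2 was highest, then control replicate 1, knockout replicate 2 and control replicate 3, with knockout replicates 1 and 3 lowest in either order. Pearson's r between them over the 6 arrays was 0.980, and Spearman's rho 0.943. This is the second highest r of the 36 pairs of members and is given as a description, since genotype and array-wide differences are shared by the points. Among all tested genes the 3 with the highest r to P4ha2 were Akt2 (0.987), Bcat1 (0.985) and P4ha1 itself, and for P4ha1 they were Akt2 (0.991), Pdxdc1 (0.984) and Alkbh1 (0.980).

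**Figure D2:**
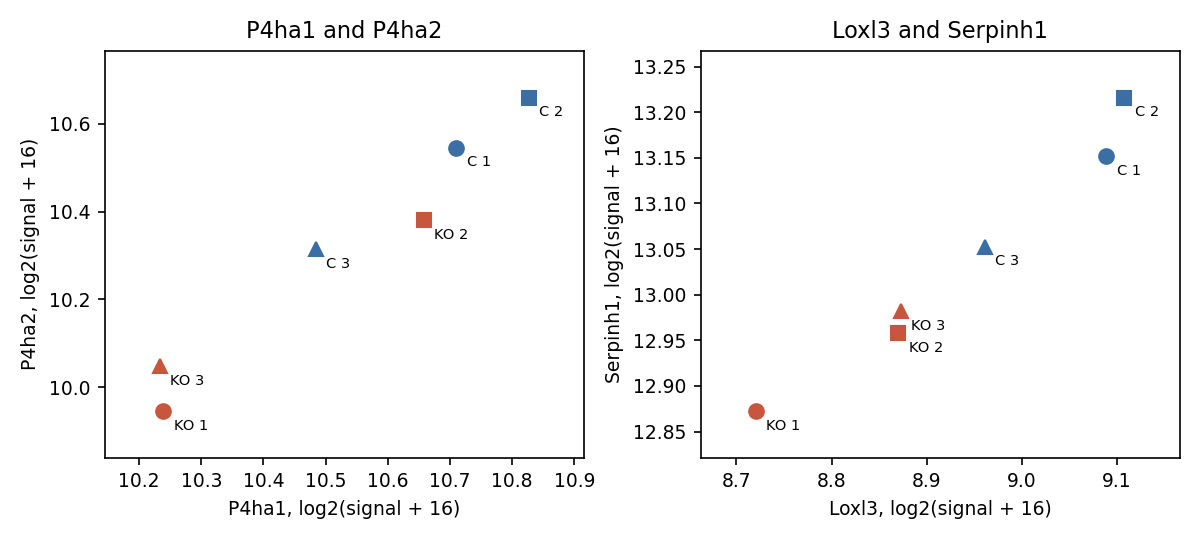
Log2(signal + 16) after quantile normalisation of P4ha2 against P4ha1 (left) and of Serpinh1 against Loxl3 (right), 1 mark per array, blue for control (C) and red for knockout (KO). In both panels control replicates 1 and 2 lie at the upper right, and knockout replicate 2 lies above control replicate 3 in the left panel only.

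Serpinh1 was among the brightest signals on the arrays, between 7163.5 and 9551.1 over its 2 probe sets, where the highest signal of any probe set was 14001.8 to 15849.9. The brighter by mean (1456733_x_at) had deposited signals of 9219.4, 9057.4 and 7283.5 in control and 7757.8, 8119.0 and 9541.0 in knockout arrays, which overlap. After normalisation the log2 levels were 13.15, 13.22 and 13.05 against 12.87, 12.96 and 12.98, and all knockout arrays lay below all control arrays. The difference was -0.20 ± 0.07 (SE, 95% interval -0.36 to -0.04, limma adjusted p = 0.407), 1.15-fold lower, with a 2-sided exact permutation p of 0.1, the smallest that 3 arrays against 3 allow. The second probe set (1450843_a_at) differed by -0.09 ± 0.08 (SE) with groups that did not overlap. Both other scalings lost the separation. With the median scaling of each array the brighter probe set differed by -0.17 and the second by -0.05, and with the deposited scaling, under which the median of all genes was 0.14, they differed by -0.01 and 0.11.

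Among the lysyl oxidases, Loxl1, known for its part in elastic fibres, had the largest difference at the gene level. Its brighter probe set (1451978_at) had signals of 922.0, 700.8 and 941.6 in control and 1033.1, 1111.7 and 1457.2 in knockout arrays. The log2 levels were 9.81, 9.58 and 10.10 in control and 10.09, 10.20 and 10.21 in knockout arrays, so that control replicate 3 lay just above knockout replicate 1 and control replicate 2 was lowest. The difference was 0.33 ± 0.13 (SE, 95% interval 0.02 to 0.65, limma adjusted p = 0.450), 1.26-fold higher. Without control replicate 2 it was 0.21 ± 0.11 (SE, limma adjusted p = 0.408). The dim probe set (1436063_at), with signals of 29.0 to 52.2, differed by 0.16 ± 0.19 (SE). The genes most like Loxl1 over the 6 arrays were Sfxn4, Hagh and Igfbp4, with Pearson's r of 0.991, 0.990 and 0.986.

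Loxl3, a lysyl oxidase needed for palate development, had 1 probe set (1418269_at) with signals of 554.6, 500.8 and 421.0 in control and 396.5, 432.1 and 571.4 in knockout arrays. In log2 levels it stood at 9.09, 9.11 and 8.96 against 8.72, 8.87 and 8.87, separated by group after normalisation though not in deposited signal. The difference was -0.23 ± 0.09 (SE, 95% interval -0.45 to -0.01, limma adjusted p = 0.457), 1.17-fold lower. With the deposited scaling it was -0.08 against a median of 0.14 for all genes. Loxl3 and Serpinh1 ranked the 6 arrays in the same order, and their r of 0.986 was the highest of the member pairs.

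Lox itself, the founding lysyl oxidase, was read by 3 probe sets. The brightest (1416121_at) had log2 levels of 11.85, 11.93 and 11.70 in control and 11.76, 12.00 and 11.67 in knockout arrays, with knockout arrays at both ends of the range. Knockout and control differed by -0.01 ± 0.11 (SE, limma adjusted p = 0.981), with a 95% interval that reaches from 0.836-fold to 1.18-fold. The second (1448228_at) stood at 10.73, 10.61 and 10.11 against 10.15, 10.30 and 9.93, a difference of -0.36 ± 0.17 (SE, limma adjusted p = 0.619 over all probe sets). With 1 array left out the difference ran from -0.23 without control replicate 1 to -0.54 without control replicate 3. The third (1437903_at), under the level filter with signals of 7.5 to 28.2, differed by -0.19 ± 0.24 (SE). No source used here states where the probes lie on the transcript.

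The 2 probe sets of Loxl4 went opposite ways. The brighter (1421153_at) had log2 levels of 7.26, 7.12 and 6.84 in control and 7.10, 7.37 and 7.05 in knockout arrays, with groups that overlapped, and differed by 0.10 ± 0.15 (SE, limma adjusted p = 0.849). The dimmer (1450134_at) had signals of 50.2, 48.7 and 48.6 in control and 38.2, 43.2 and 43.3 in knockout arrays. Its groups were separated, at -0.31 ± 0.16 (SE, 95% interval -0.68 to 0.06, limma adjusted p = 0.650 over all probe sets), also in deposited signal.

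The brighter probe sets of both lysyl hydroxylases lay higher in knockout arrays. Plod2, which hydroxylates the ends of collagen chains and so shapes bone crosslinks, had a brighter probe set (1416687_at) with signals of 319.8, 328.0 and 198.7 in control and 329.3, 347.6 and 424.6 in knockout arrays. Every knockout array was above every control array in deposited signal, but in log2 levels (8.32, 8.52 and 7.92 against 8.47, 8.57 and 8.47) control replicate 2 lay among the knockout arrays. The difference was 0.25 ± 0.15 (SE, 95% interval -0.11 to 0.61, limma adjusted p = 0.602). It rested on control replicate 3, without which it was 0.08, and it was 0.38 without control replicate 2. The other probe set of Plod2 (1416686_at) stood at 7.97, 7.92 and 7.83 against 7.91, 7.83 and 7.69 and differed by -0.10 ± 0.11 (SE), with r of 0.01 to the first over the 6 arrays.

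Plod1, which hydroxylates lysines within the helix, had log2 levels of 8.21, 8.30 and 8.14 in control and 8.23, 8.49 and 8.19 in knockout arrays (1416289_at). The groups overlapped, and the difference was 0.09 ± 0.11 (SE, 95% interval -0.17 to 0.36, limma adjusted p = 0.810). Its dim probe set (1445893_at), under the level filter with signals of 8.1 to 21.4, differed by 0.13 ± 0.21 (SE).

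**Figure D3:**
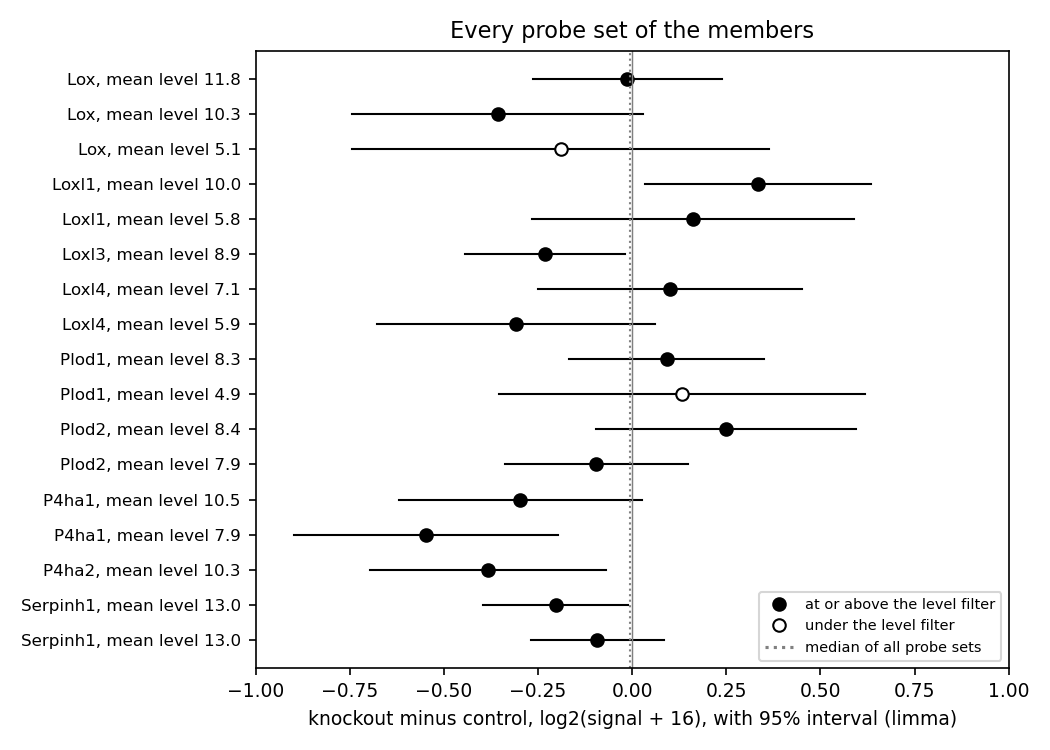
Knockout minus control difference in log2(signal + 16) of each of the 17 probe sets, with the 95% interval of limma (horizontal axis) and the mean level over the 6 arrays beside the name. All intervals are from the fit over probe sets, so those of brightest probe sets differ slightly from the gene-level intervals in the text. Filled marks reached the level filter, open marks did not, and the dotted line is the median of all probe sets. The intervals of 5 probe sets leave out 0, and the probe sets of Lox, Loxl4 and Plod2 spread widely within a gene.

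Over all 17 probe sets, 11 lay lower and 6 higher, and 0 passed an adjusted p of 0.05 in limma (0% of all probe sets), with 5 at an unadjusted p under 0.05, against 8.48% of all. Groups were separated for 5 probe sets, all lower, where 14.2% of all probe sets were separated (6.59% lower, 7.57% higher): Loxl3, both of Serpinh1, the dimmer one of P4ha1 and the dimmer one of Loxl4. With the deposited scaling 4 were separated (12.2% of all probe sets), of which those of P4ha1 and Loxl4 were lower and the brighter ones of Plod2 and Loxl1 higher. Over genes that scaling separated 2 members, both higher, against 13.2% of all genes (12.4% higher, 0.77% lower). The 2 probe sets that stayed separated and lower under both scalings were thus the dimmer ones of P4ha1 and Loxl4.

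The other genes of collagen assembly were described from 5 lists with 58 genes, of which 53 had a probe set and 48 were tested. None passed limma's threshold over all genes (0% of all were called). At an unadjusted p under 0.05 there were 8, against 10.5% of all genes. Of the 48 genes 20 lay higher and 28 lower, and the median was -0.04 against -0.01 for all genes. In 5 genes every knockout array lay above every control and in 6 below, against 9.23% and 7.76% of all genes.

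Closest to the members stand the remaining hydroxylases and their partners, 10 of 12 tested, with 7 higher, 3 lower and a median of 0.03. P4ha3, the third alpha subunit of prolyl 4-hydroxylase, went the other way from P4ha1 and P4ha2. It had log2 levels of 6.07, 6.89 and 6.13 in control and 7.09, 7.09 and 7.13 in knockout arrays, with every knockout array above every control. The difference was 0.74 ± 0.22 (SE, 95% interval 0.24 to 1.24, limma adjusted p = 0.348), or 1.67-fold. Leaving out control replicate 2, when 2.67% of all genes were called, P4ha3 passed the threshold (1.00, limma adjusted p = 0.0101). P4hb, the beta subunit shared by all 3, differed by -0.03 ± 0.08 (SE). Plod3, the third lysyl hydroxylase, which also glycosylates collagen, stood at 7.89, 8.12 and 8.10 against 8.35, 8.39 and 8.25, separated and higher by 0.30 ± 0.11 (SE, limma adjusted p = 0.412). P3h3, a partner of lysyl hydroxylation in the endoplasmic reticulum, differed by 0.32 ± 0.15 (SE). The complex of P3h1, Crtap and Ppib, which hydroxylates a single proline of type I collagen, had differences of 0.02 ± 0.15, 0.02 ± 0.10 and -0.05 ± 0.08 (SE).

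Folding and export genes were tested for 14 of 15, with 5 higher, 9 lower and a median of -0.06. Tmem38b, an ion channel of the endoplasmic reticulum whose loss causes brittle bones, had 7.63, 6.78 and 7.46 in control and 6.89, 6.62 and 6.78 in knockout arrays, a difference of -0.53 ± 0.22 (SE, limma adjusted p = 0.472). Control replicate 2 was at the level of the knockout arrays. Without it Tmem38b passed (-0.78, limma adjusted p = 0.0312), when 2.67% of all genes were called. Mia3, also called Tango1, which loads procollagen into carriers, was separated and lower by -0.17 ± 0.08 (SE), and by -0.01 with the deposited scaling. Creb3l1, a transcription factor of collagen secretion in bone, differed by 0.19 ± 0.10 (SE).

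Procollagen processing genes were tested for 4 of 8, all lower, with a median of -0.08. Bmp1, the protease that removes the C-terminal propeptide and also activates Lox, had 9.58, 9.43 and 9.55 against 9.31, 9.28 and 9.28, separated and lower by -0.23 ± 0.08 (SE, limma adjusted p = 0.419), and by -0.07 with the deposited scaling. Pcolce, its enhancer, differed by -0.07 ± 0.05 (SE) with separated groups, and by 0.09 with the deposited scaling. Pcolce2 differed by -0.09 ± 0.17 (SE).

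Genes of copper supply and crosslinking cofactors were tested for 10 of 13, with 5 higher, 5 lower and a median of 0.01. Fmod, fibromodulin, a small proteoglycan that binds collagen and steers where Lox acts, stood at 11.41, 12.10 and 11.84 in control and 12.23, 12.48 and 12.25 in knockout arrays. All knockout arrays lay above all controls, by 0.54 ± 0.17 (SE, limma adjusted p = 0.377). Fn1, the fibronectin scaffold of the matrix, and Tgm2, a transglutaminase that forms another kind of crosslink, differed by 0.14 ± 0.08 and -0.31 ± 0.18 (SE). Atp7a, the pump that gives Lox its copper, was separated and lower by -0.07 ± 0.09 (SE).

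Fibrillar substrates were tested for 10 of 10, with 3 higher, 7 lower and a median of -0.05. The chains of type I collagen, the bulk of bone matrix, differed by -0.05 ± 0.07 for Col1a1 and -0.09 ± 0.06 for Col1a2 (SE). Col2a1, the cartilage collagen, was separated and higher by 1.46 ± 0.41, and Col5a3 and Col11a2 were separated and lower by -0.83 ± 0.22 and -0.41 ± 0.11 (SE), with limma adjusted p of 0.329, 0.315 and 0.316. Col5a3 passed without control replicate 2 (-1.08, limma adjusted p = 0.0136), when 2.67% of all genes were called. Col2a1 passed with the deposited scaling (1.61, limma adjusted p = 0.00921), when 0.275% of all genes were called. Col2a1 moved with the chondrocyte markers given above, of which it is one, and their part in its value was not tested.

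**Figure D4:**
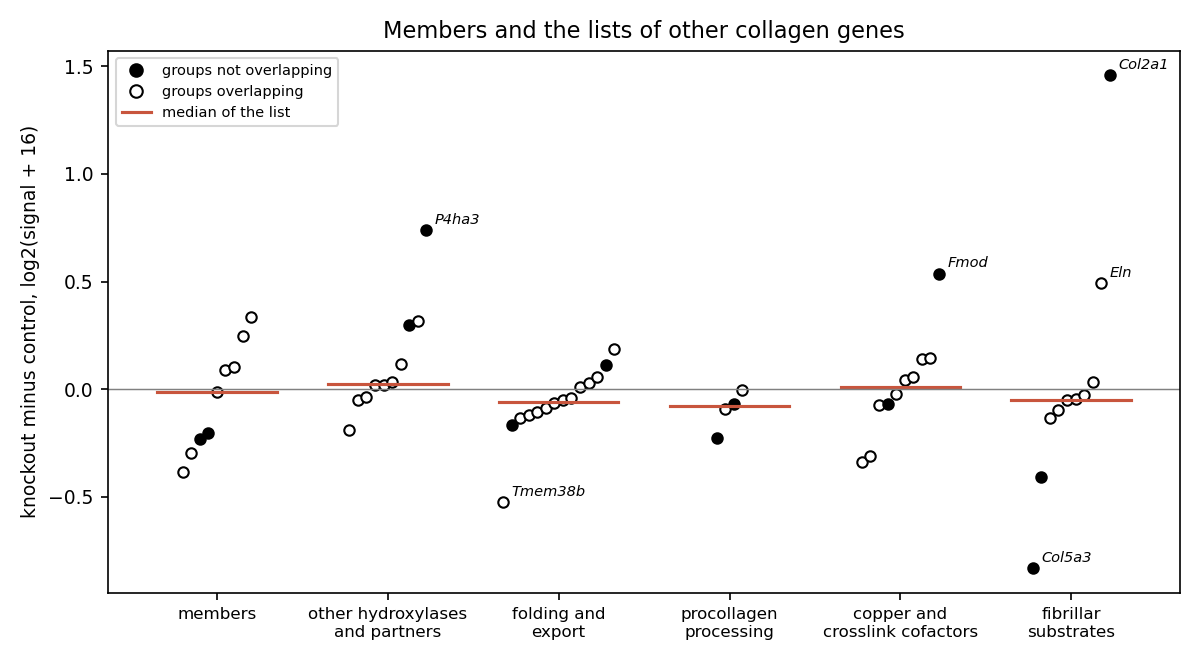
Knockout minus control difference in log2(signal + 16) (vertical axis) of each tested gene of the members and of the 5 lists, 1 mark per gene. Filled marks have groups that do not overlap, open marks overlap, and the red line is the median of each list. The medians lie between -0.08 and 0.03, and Col2a1, P4ha3, Fmod and Col5a3 lie farthest from 0 among the filled marks.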

How the data were processed

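The authors deposited 1 linear signal intensity per probe set and array. The submitters' processing notes name GCOS without a version; no source used here states the background correction, probe summary or scaling target. Array medians were 18.7 to 28.5. Precision is limited by having 3 arrays a group. From these intensities log2(signal + 16) was computed and quantile normalised, so folds of dim genes are understated. Of 45101 probe sets 64 controls were left out; 34945 had 1 gene symbol, 932 several and 9160 none here, and 34741 took their current symbol from RefSeq's table. The brightest probe set stood for each of 18193 genes, and the lowest 40% by mean, under 5.37, were left out. The 2 groups were tested with limma 3.58.1 under R 4.3.3 (lmFit, eBayes with trend, 2-sided, Benjamini-Hochberg), over 10916 genes and, without a level filter, over 45037 probe sets. Only the limma fit was tested on simulated data, with added changes larger than those of the members. Normalisation, probe set choice and filter were not. The members and lists were chosen with earlier results of these data known. Named were all members, in each of the 5 collagen lists and the hypoxia list the 3 genes with the smallest p and any gene called, and the 3 genes most like each of the 3 most variable members; P4hb, P3h1, Crtap, Ppib, Atp7a, Col1a1, Col1a2 and Dmp1 were added for their role and Mmp9 for its size, after their values were seen. Deviations of same-numbered replicates from their group means correlated at -0.38, 0.10 and -0.04, and those of other pairs at -0.34 to 0.42. With 3 arrays a group these values cannot show if replicates were paired. Alternatives were other scalings, pseudocounts, filters and probe set rules, array weights, no trend, a replicate block and each array left out.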

Additional observations from a re-analysis of the deposited data

How the results depend on the processing

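Over 16 alternatives for each of the 9 members, 136 differences kept their direction and stayed short of the threshold and 8 changed sign. The other filters, the fit without a trend and the replicate block leave every difference unchanged, so direction was kept there by construction. The same holds with the mean of all probe sets for Loxl3 and P4ha2, which have 1 probe set each. Lox changed from -0.01 to 0.015 with array weights and to 0.14 with the deposited scaling. The median of all genes was also 0.14 under that scaling. Lox was at 0.04 without control replicate 2, 0.01 without knockout replicate 1 and 0.056 without knockout replicate 3. With 1 array left out it ran from -0.11 to 0.056. Loxl4 changed from 0.10 to -0.10 with the mean of all probe sets, which takes in its dimmer probe set at -0.31. It changed to -0.017 without control replicate 3 (range with 1 array left out -0.017 to 0.20). Plod1 changed from 0.09 to -0.00086 without knockout replicate 2 (range -0.00086 to 0.15). The cause was not tested. The 6 other members kept their direction, P4ha2 between -0.51 and -0.24 and Plod2 between 0.08 and 0.39. The smallest adjusted p of any member under any alternative was 0.237. All genes called were 30 with the deposited scaling and 0 to 291 with 1 array left out, 291 being without control replicate 2 (86 higher, 205 lower), and 0 under the other alternatives, where 820 to 1589 were at an unadjusted p under 0.05. Of the other collagen genes, 1 was called with the deposited scaling and 0 to 3 with 1 array left out. With the replicate number as a block 0 genes were called, 820 were at an unadjusted p under 0.05, and the block changed no call of a member (smallest adjusted p 0.611). Loxl2 could not be given a value under any alternative. Dim probe sets limit what can be read: 38.6% to 46.9% of signals on an array lay under 16.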

Other observations

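Genes induced by hypoxia that are not part of collagen assembly were set beside P4ha1, P4ha2, Plod2 and Lox, which are known targets of the same factors. Of 15 such genes 14 were tested, 7 higher and 7 lower in knockout arrays, with a median of 0.03 against -0.01 for all genes. Of these, 0 passed limma's threshold over all genes (0% of all were called). At an unadjusted p under 0.05 there were 2, against 10.5% of all genes. Adm, the vasodilator adrenomedullin, stood at 8.25, 7.84 and 8.33 in control and 7.72, 7.65 and 7.46 in knockout arrays, separated and lower by -0.53 ± 0.15 (SE, limma adjusted p = 0.333). Ldha, lactate dehydrogenase, stood at 11.08, 10.64 and 11.09 against 11.29, 11.48 and 11.14, separated and higher by 0.37 ± 0.15 (SE, limma adjusted p = 0.442). Slc2a1, the glucose transporter Glut1, differed by 0.29 ± 0.14 (SE) with groups that overlapped. Without control replicate 2 Adm passed (-0.68, limma adjusted p = 0.0345), when 2.67% of all genes were called.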
